A study of Mus musculus with 12 samples.

Results

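RNA bound by an antibody against N6-methyladenosine (m6A) was compared between kidneys of mice labelled as a conditional knockout of Mettl3 (METTL3-cKO, here cKO) and kidneys of wild-type mice (WT). The comparison takes the 6 immunoprecipitated (IP) samples of a study of 12 samples, 3 per genotype, and covers all 33517 of 60706 probes whose IP signal passed the scanner software's well-above-background mark in 3 or more of the 6 kidneys. Animals of both genotypes were male, of strain C57BL/6 and 6 to 8 weeks old, and both had been given glyoxylate, which the body turns into oxalate, at 100 mg/kg in 200 µl into the peritoneum each day for 7 days, which serves as a model of calcium oxalate crystals in the kidney. No group without glyoxylate was analysed here. The labels state neither the promoter of the Cre nor the cells that lost the gene, and whole kidneys were used, so fewer cells of a type and less RNA per cell cannot be told apart. For each kidney, the unbound RNA left after precipitation (the supernatant) was labelled with the other dye and put on the same array.

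Mettl3 encodes the catalytic subunit of the methyltransferase complex that places m6A on adenosines of nascent messenger RNA. The mark is read by proteins of the YTH family and by other RNA-binding proteins, and it is known for its effects on splicing, export, translation and decay of transcripts. In an m6A precipitation, the IP signal of a transcript depends both on how much of the transcript there is and on how much of it carries the mark, and the unbound fraction of the same kidney is the measurement that stands beside it.

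The files give a gene to few probes. A RefSeq gene table named 45 of them, of which 38 were measured in the IP, and the other probes are known by identifiers alone. None of the 21 m6A writers, erasers and readers listed was among the named genes, so neither the loss of Mettl3 nor its partners was measured under a name here, and no level of the targeted gene stands behind the genotype labels. Of 40 markers of kidney and immune cell types in 10 lists, the one named gene was Mzb1, a chaperone of plasma cells, so the tissue was not checked either. Signals are given as log2 of the processed signal relative to the 75th percentile of the array, a difference is cKO minus WT on that scale, and all tests across probes are limma's moderated test with p adjusted after Benjamini-Hochberg over all probes tested. Values for a genotype rest on 3 kidneys, which the labels call biological replicates, and this number limits their precision. The share of probes well above background in the IP lay between 52.1% and 56.1% on the 6 arrays. Log2 signals correlated at r = 0.959 to 0.962 within WT, 0.976 to 0.981 within cKO and 0.944 to 0.974 between genotypes. WT arrays were thus no more alike than arrays of different genotypes, and WT array 1 correlated better with each cKO array than with the other WT arrays. The arrays fell into groups by the scan identifier in their headers. These groups are called slides here, though no label names a slide. WT arrays 1 and 3 had the identifier of slide 1, and WT array 2 had that of slide 2 with all 3 cKO arrays.

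The first question was which transcripts differed in the bound RNA when the genotypes were compared. At an adjusted p under 0.05, 35 probes passed, which is 0.104% of the probes tested. The bound signal rose in cKO for 23 of these (0.0686%) and fell for 12 (0.0358%). For 25 of the 35, the probe was well above background in the IP of all 6 kidneys. Among them, the 15 that rose differed 2.83- to 10.2-fold (median 4.14-fold) and the 10 that fell differed 2.86- to 10.3-fold (median 4.63-fold). For 34 of the 35, the genotypes did not overlap in any kidney. Over all probes tested this held for 17.5%, with cKO higher for 6.93% and lower for 10.6%. The 35 were chosen by a test on these same values, which favours groups that lie apart, so their count is a description. The call on the remaining probe rested on 1 WT array, because its spots on the other WT arrays were marked as outliers and left out. With those spots kept, its difference went from 3.76 to 1.21 and its adjusted p was 0.625.

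Across all probes the differences were centred near 0, with a median of -0.01 and quartiles of -0.26 and 0.25. Each array was scaled to its own 75th percentile, which by itself brings the centre near 0. A shift shared by all probes is therefore not measured by this median. Of the probes tested, 3963 (11.8%) had an unadjusted p under 0.05, with 1588 higher (4.74%) and 2375 lower (7.09%) in cKO. At an unadjusted p under 0.001 the counts were 99 higher and 113 lower. A difference of at least 2-fold was measured for 1002 probes (2.99%), 507 higher and 495 lower in cKO. The spread between kidneys was larger in WT, with a median SD of 0.321 against 0.244 in cKO, and it was the larger one in WT for 21183 of 33292 probes with a value on every array. Scaling to spike-in controls in place of the 75th percentile moved the median difference to -0.21, and then 16 probes rose and 30 fell, so which direction held more calls depended on the scaling. With background correction by normexp followed by loess and Aquantile, 4 rose and 1 fell.

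**Figure D1:**
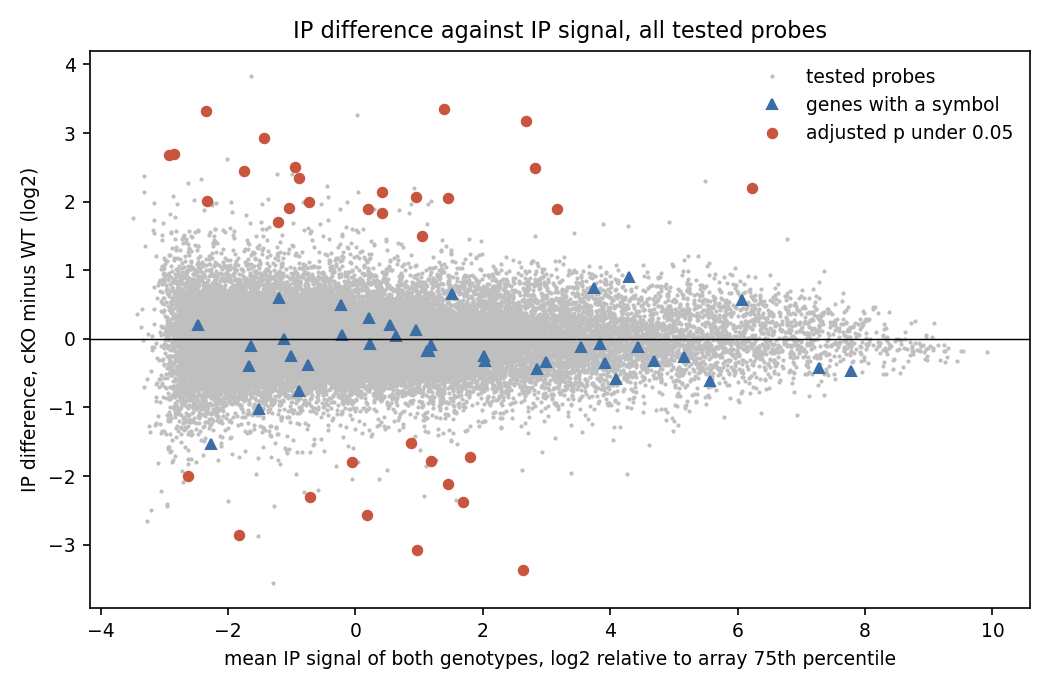
Each point is a probe, with its mean IP signal over both genotypes on the x axis (log2 relative to the array's 75th percentile) and its IP difference, cKO minus WT (log2), on the y axis. Gray points are tested probes, blue triangles the 38 genes with a symbol and red points the probes with an adjusted p under 0.05, and 33292 of 33517 probes are drawn, those with a value on every array. Red points lie above and below 0 along most of the signal range, and the blue triangles lie between -1.53 and 0.90.

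Calls came from dim and from bright probes. When the probes were divided by mean IP signal into 4 groups of 8323, from dimmest to brightest, the groups held 7, 7, 11 and 9 calls. By the class in the probe name, 33 of the 35 calls were in the largest class (ASMM10EP3A, 28008 tested) and 2 in a second class (ASMM10EP3B, 3735 tested). The class ASMM10SM1, of 1720 tested probes, held 0 calls in limma's test, and at an unadjusted p under 0.05 it had 82 probes higher and 26 lower in cKO. Together these were 6.28% of the class, against 11.8% over all probes, of which 4.74% were higher and 7.09% lower. The median IP difference of that class was 0.03. In the supernatant, the median difference over those of its probes that were also measured there was -0.23, so the sets of probes may differ.

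The probes with the largest differences show what a passing call looked like in the single kidneys. ASMM10EP3A100131049 had IP signals of -0.25, -0.47 and -0.12 in WT kidneys 1, 2 and 3 and of 2.60, 3.09 and 3.52 in cKO kidneys 1, 2 and 3. All 3 cKO kidneys lay far above all 3 WT kidneys, with a difference of 3.35 ± 0.27 (SE, 10.2-fold, adjusted p = 0.00914). In the supernatant this probe was well above background in all 3 cKO kidneys and in 0 of 3 WT kidneys, at least 2.03-fold higher in cKO after normexp, loess and Aquantile (adjusted p = 0.0191 on the processed signals). ASMM10EP3A100173013 had IP signals of 0.66, 1.18 and 1.40 in WT and of 4.30, 4.16 and 4.33 in cKO. The groups lay apart here too, by 3.18 ± 0.25 (9.07-fold, adjusted p = 0.00863). Its unbound signal rose as well, from -0.81, -0.50 and -0.29 in WT to 4.00, 3.26 and 3.39 in cKO, a difference of 4.08 ± 0.26 (adjusted p = 0.00717).

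In the other direction, ASMM10EP3B100014740 had IP signals of 4.77, 3.47 and 4.71 in WT and of 1.05, 0.38 and 1.43 in cKO. WT kidney 2 was the lowest of the WT kidneys, and still above every cKO kidney, and the difference was -3.36 ± 0.40 (10.3-fold, adjusted p = 0.0390). The supernatant of this probe was between 1.08 and 2.22 in WT and between -1.80 and 0.06 in cKO, a difference of -2.44 ± 0.48 that did not pass (adjusted p = 0.111). ASMM10EP3A100008369 had IP signals of 1.79, 2.89 and 2.83 in WT and of -1.17, -0.50 and -0.04 in cKO, with a difference of -3.07 ± 0.38 (8.41-fold, adjusted p = 0.0390). Its supernatant fell too, by 2.26 ± 0.30 on the log2 scale (adjusted p = 0.0331). The 4 probes were chosen for large differences with groups that did not overlap, so leaving out 1 array could not turn a sign. Without 1 array at a time, the 4 differences ranged from 3.12 to 3.58, from 2.97 to 3.34, from -3.79 to -3.07 and from -3.43 to -2.77 in the order given. After normexp, loess and Aquantile all 4 were smaller, at 2.40, 2.63, -2.77 and -2.00. Of these only ASMM10EP3A100173013 passed limma's test (adjusted p = 0.0106). With the slide as a block the differences were 3.53, 3.08, -2.51 and -3.46. The calls depended on single arrays. Without cKO array 2 or without cKO array 3 the count over all probes was 0 (with 2854 and 3214 probes at an unadjusted p under 0.05), without cKO array 1 it was 2, and without WT arrays 1, 2 and 3 it was 6, 12 and 4.

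**Figure D2:**
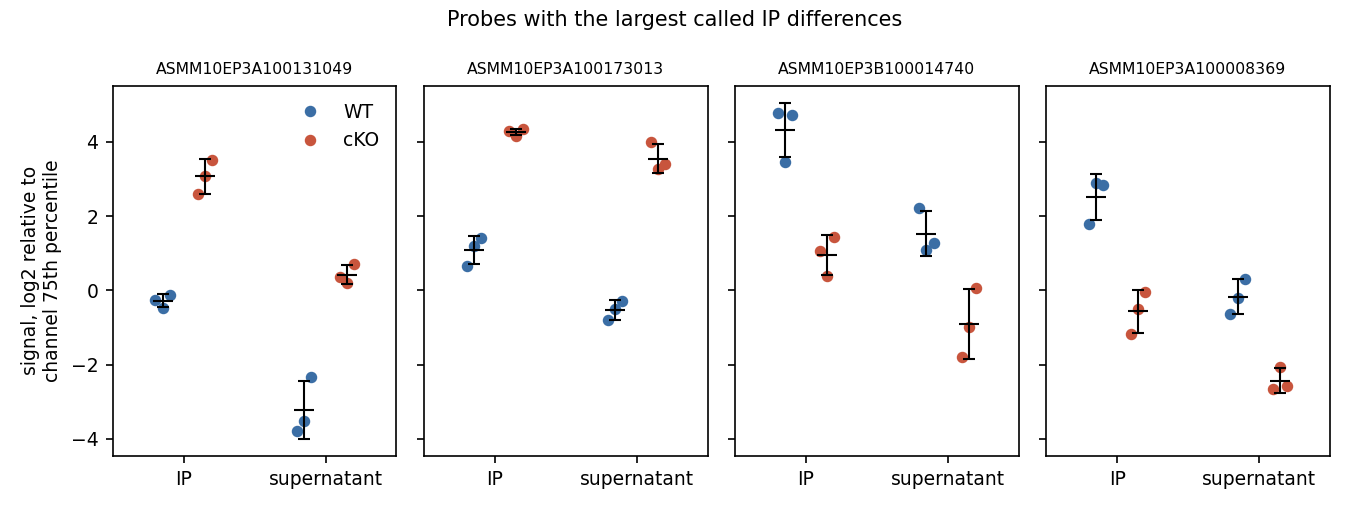
For 4 probes, the IP and supernatant signals (y axis, log2 relative to the 75th percentile of the channel) are drawn for every kidney, WT in blue and cKO in red, with the mean and SD (n = 3) in black. In each of the 4 panels the cKO points lie on the same side of the WT points in both fractions, for example 2.60 to 3.52 against -0.47 to -0.12 in the IP of the first probe.

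The next question was whether the probes called in the bound RNA also differed in the unbound RNA of the same kidneys. Of the 35, 29 were measured in the supernatant, and the mean difference of all 29 had the same direction there as in the IP. The 29 include the probe whose IP call rested on 1 WT array. Its unbound signal gave overlapping groups, because only WT kidney 3 (2.24) lay below the cKO kidneys (5.71 to 5.88). WT kidneys 1 (6.20) and 2 (6.02) lay above all of them, so the shared direction of this probe came from WT kidney 3. Over all 29112 probes tested in both fractions the sign was the same for 15240. In the supernatant's own test 12 of the 29 passed, 10 that rose and 2 that fell, against 68 of 31173 probes (0.218%). Both fractions of a kidney lay on the same spots of 1 array, so the channels share the kidney and the spot. The share of probes well above background in the supernatant was 38.5% and 31.7% on WT arrays 1 and 3 (slide 1) and 52.5% on WT array 2 (slide 2). On the cKO arrays, all on slide 2, it was 49.9% to 56.9% (exact permutation p = 0.2 between genotypes). The cKO minus WT difference was 12.6 percentage points over all arrays and 0.97 within slide 2. The part of this share in these values was not tested. Across all probes, which are not independent, the differences in the IP and in the supernatant correlated weakly, with r = 0.24 and Spearman's rho of 0.13.

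Among the 20 probes that rose in the IP and were measured in both fractions, the median difference was 2.10 in the IP and 2.20 in the supernatant. The median of the IP difference minus the supernatant difference was -0.08, with values from -0.90 to 0.63, of which 11 were negative and 9 positive. Among the 9 that fell, the median difference was -2.30 in the IP and -1.89 in the supernatant. There the IP difference minus the supernatant difference had a median of -0.82 and a range from -2.25 to 0.12, and 8 of 9 were negative. These 9 were chosen for a large loss in the IP, which by itself pushes the IP difference minus the supernatant difference below 0, so the values are a description. For 4 of the 9 the supernatant differed by less than 1 log2 unit. None of the 29 passed the test of the IP difference minus the supernatant difference, in which the smallest adjusted p was 0.0809 for those that fell and 0.187 for those that rose. That test called 1 of 28363 probes (0.00353%) and had 4649 at an unadjusted p under 0.05. The well-above-background mark was met in each channel on every array by 17780 probes. Restricted to such probes, the test called 144, 14 higher and 130 lower. After normexp, loess and Aquantile it called 122, 7 higher and 115 lower. With the slide as a block it called none, so these counts are a description.

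**Figure D3:**
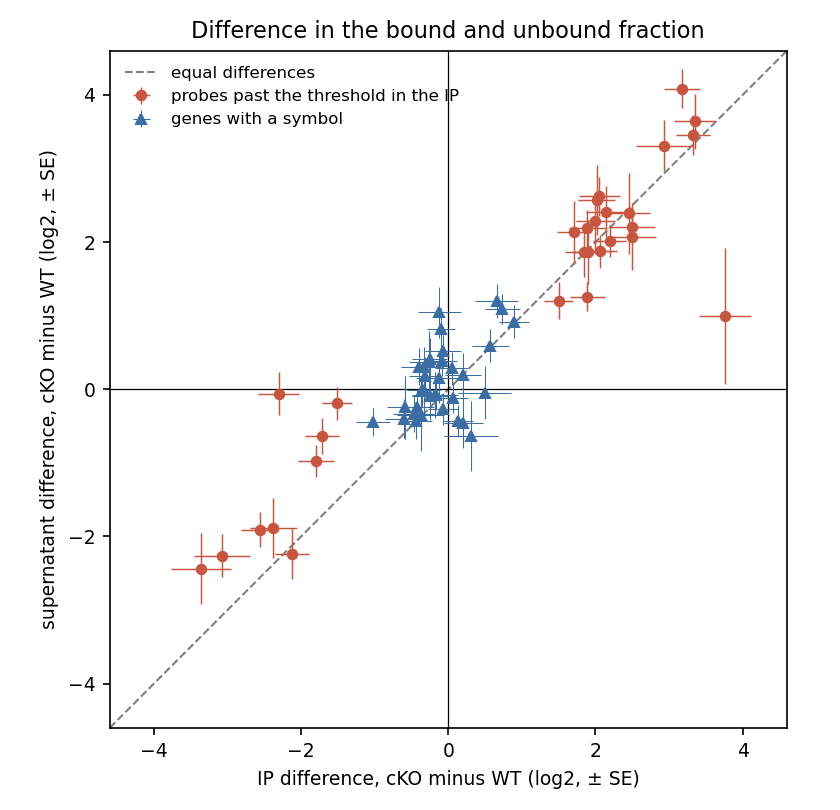
The IP difference (x axis) and the supernatant difference (y axis), both cKO minus WT on the log2 scale with SE, are drawn for the 29 probes that passed in the IP and were measured in both fractions (red) and for 34 genes with a symbol (blue), with a dashed line where both are equal. All 29 red points lie in the lower left or upper right, and 8 of 9 of those that fell lie above the dashed line, where the loss is larger in the IP.

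Some probes passed the well-above-background mark in the bound RNA of 1 genotype alone. A signal below that mark does not show that the transcript was absent. A probe was well above background in the IP of all 3 cKO kidneys and of 0 WT kidneys for 179 probes (0.295% of all probes) and of all 3 WT kidneys and 0 cKO kidneys for 72 probes (0.119%). In comparison, 28039 probes were above background in the IP of all 6 kidneys and 22968 in none. Of the 35 calls, 5 were among the 179 and 1 among the 72, against 0.104% called over all probes. These probes entered the test only through the genotype in which they were detected, so nothing is read from those counts. On the scale after normexp, loess and Aquantile these 6 differed by at least 1.21- to 1.57-fold. In the supernatant, 14 of the 179 were above background in all 6 kidneys and 49 in none, and 3 of the 72 in all 6 and 26 in none. Leaving out 1 array relaxes the rule, so that the counts can only stay or grow, and they then lay between 279 and 387 for cKO and between 96 and 248 for WT.

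The slide lay close to the genotype, since slide 1 held WT arrays alone. With the slide as a block 0 probes passed, 3118 had an unadjusted p under 0.05, and the smallest adjusted p was 0.0510. Slide 2 held 1 WT array, so values within it have no spread among WT kidneys, and the spread there comes from the 3 cKO kidneys alone. For the 34 of 35 calls with a value, the difference within slide 2 was 0.75 to 1.24 times (median 0.98 times) that over all arrays. Its sign was fixed by the choice of these probes, because WT kidney 2 already lay on the same side of all cKO kidneys, so this range is a description. In the fit within slide 2, 5 probes passed, all of which rose, and 2 of them were among the 35. With a single WT array on slide 2, slide and genotype cannot be fully told apart.

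Among the 38 named genes measured in the IP, none passed the threshold in limma's test, and 9 had an unadjusted p under 0.05, 4 with a higher and 5 with a lower signal in cKO. That is 23.7% of the named genes beside 11.8% of all probes. The 38 had a median difference of -0.15, with 13 above and 25 below 0. The groups did not overlap for 12 of them, 3 with cKO higher and 9 with cKO lower, where over all probes the shares were 17.5%, 6.93% and 10.6%. Each named gene was read by 10 spots of 1 probe, and these spots agreed better (median SD 0.0846) than the kidneys of a genotype (median SD 0.208 in WT and 0.201 in cKO). The remaining 7 named genes (Tyr, Il2, Atg3, Chgb, Spats1, Hspb7 and Gabrg1) were too dim in the IP to be tested.

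**Figure D4:**
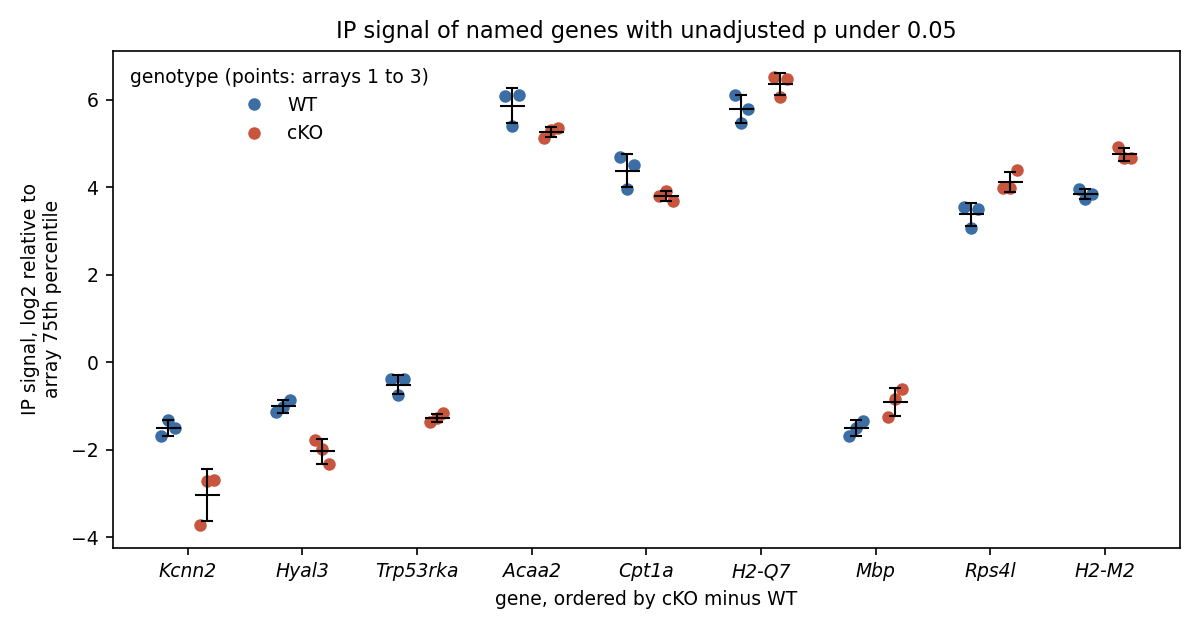
IP signals (y axis, log2 relative to the array's 75th percentile) of the 9 named genes with an unadjusted p under 0.05 (x axis) are drawn for every kidney, WT in blue and cKO in red, with the mean and SD (n = 3) in black. Levels of different genes come from different probes and are not comparable. The points of WT and cKO lie apart for 8 of the 9 genes, and for H2-Q7 they overlap. The genes were chosen by p on these same values, which favours groups that lie apart. Of all 3963 probes with an unadjusted p under 0.05, the groups lay apart for 3293, so the count is a description.

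On the processed signals the largest differences among the named genes were those of Kcnn2 and Hyal3, both dim, and neither passed. Kcnn2, a calcium-activated potassium channel of small conductance, had IP signals of -1.68, -1.32 and -1.51 in WT and of -3.72, -2.71 and -2.68 in cKO. It was well above background in all 3 WT kidneys and in 1 of 3 cKO kidneys, and the difference was -1.53 ± 0.31 (2.89-fold, adjusted p = 0.147). In the supernatant it was not well above background in any kidney. After normexp, loess and Aquantile the Kcnn2 difference was -0.24. Hyal3, a member of the hyaluronidase family, had IP signals of -1.14, -1.02 and -0.86 in WT and of -1.76, -1.99 and -2.33 in cKO, a difference of -1.02 ± 0.23 (2.03-fold, adjusted p = 0.174). After the same processing the Hyal3 difference was -0.25, and H2-M2 (0.82), Rps4l (0.68), Acaa2 (-0.58), H2-Q7 (0.56) and Cpt1a (-0.55) had larger ones. In the supernatant Hyal3 differed by -0.45 ± 0.19 (adjusted p = 0.475) and was above background in 1 WT and 2 cKO kidneys.

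Both class I histocompatibility genes with a name, whose products belong to the family that presents peptides to T cells, had higher bound signals in cKO, and neither passed. H2-M2 was at 3.96, 3.73 and 3.85 in WT and at 4.91, 4.66 and 4.66 in cKO. Its groups lay apart by 0.90 ± 0.21 (1.86-fold, adjusted p = 0.176), and in the supernatant by nearly as much, 0.92 ± 0.22 (adjusted p = 0.183). H2-Q7, a gene of the Qa-2 antigen, was at 6.10, 5.46 and 5.78 in WT and at 6.52, 6.07 and 6.47 in cKO, with overlapping groups, a difference of 0.57 ± 0.25 (adjusted p = 0.420) and a supernatant difference of 0.59 ± 0.22 (adjusted p = 0.396). The IP difference minus the supernatant difference was -0.02 for each of them. Within slide 2, the IP differences were 1.01 for H2-M2 and 0.89 for H2-Q7. The family holds close relatives, so which member each probe reads is uncertain.

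Rps4l, a ribosomal protein gene related to Rps4x, showed a similar picture. The WT kidneys had IP signals of 3.56, 3.08 and 3.50 and the cKO kidneys of 3.98, 3.99 and 4.38. The groups lay apart by 0.74 ± 0.24 (1.67-fold, adjusted p = 0.306), and in the supernatant by 1.09 ± 0.20 (adjusted p = 0.0944). Because Rps4l has a close relative, this gene too is uncertain. Nup50, a component of the nuclear pore, was at 1.60, 0.64 and 1.32 in WT and at 1.90, 1.52 and 2.10 in cKO. Its difference of 0.66 ± 0.30 (adjusted p = 0.434) stood beside 1.20 ± 0.23 in the supernatant (adjusted p = 0.104). Mbp, known as a protein of myelin and also made outside the nervous system, was at -1.68, -1.49 and -1.33 in WT and at -1.25, -0.84 and -0.62 in cKO, a difference of 0.60 ± 0.24 (1.51-fold, adjusted p = 0.392). In the supernatant Mbp was above background in 2 cKO and 0 WT kidneys, too few to be tested.

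Tubule cells of the kidney burn fatty acids for energy, and 4 genes of fatty acid oxidation and peroxisomes had a name. All 4 had a difference below 0 in the bound RNA (median -0.43, against -0.01 over all probes), none passed, and 2 had an unadjusted p under 0.05. Acaa2, the mitochondrial thiolase of the last step of the pathway, had IP signals of 6.08, 5.40 and 6.10 in WT and of 5.12, 5.29 and 5.35 in cKO, a difference of -0.61 ± 0.25 (adjusted p = 0.402). Cpt1a, which commits fatty acids to transport into mitochondria, had IP signals of 4.69, 3.96 and 4.50 in WT and of 3.79, 3.91 and 3.68 in cKO, a difference of -0.59 ± 0.25 (adjusted p = 0.406). For both genes WT kidney 2, the WT kidney on slide 2, lay just above the cKO kidneys and the WT kidneys on slide 1 lay higher. Within slide 2 the differences were -0.15 for Acaa2 and -0.17 for Cpt1a. In the supernatant they were -0.40 ± 0.26 and -0.24 ± 0.43.

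Ppara, the nuclear receptor that switches on genes of this pathway, was at 5.45, 4.93 and 5.49 in WT and at 5.11, 4.63 and 5.33 in cKO. Its groups overlapped, with a difference of -0.27 ± 0.27 (adjusted p = 0.726) that was 0.09 within slide 2. Pex11a, which helps peroxisomes to divide, was at 4.93, 3.97 and 4.59 in WT and at 4.62, 4.12 and 4.38 in cKO. Its bound signal differed by -0.12 ± 0.29 (adjusted p = 0.896), which was 0.41 within slide 2, while its unbound signal was at 3.19, 2.16 and 2.75 in WT and at 4.31, 3.54 and 3.38 in cKO. The supernatant groups lay apart by 1.04 ± 0.34 (adjusted p = 0.319). The IP difference minus the supernatant difference of Pex11a was -1.17 ± 0.24 (adjusted p = 0.122). Among neighbouring metabolic genes, Apoe, an apolipoprotein that binds lipoprotein receptors, differed by -0.47 ± 0.28 (adjusted p = 0.535). The glycolytic isomerase Gpi1 differed by -0.42 ± 0.23 (adjusted p = 0.502), and the groups overlapped for both genes.

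Actb, the cytoplasmic actin often used as a reference transcript, was at 3.15, 2.99 and 3.08 in WT and at 2.46, 2.51 and 2.93 in cKO. Its groups did not overlap, and the difference of -0.44 ± 0.22 (adjusted p = 0.470) was matched by -0.44 ± 0.24 in the supernatant (adjusted p = 0.604). The control probe at the 3' end of Gapdh, another reference transcript, differed by 0.02 in the IP (p = 0.8 in an exact two-sided permutation test), and that of Pgk1 by -0.23 (p = 0.1 in the same exact test, which is as low as 3 against 3 arrays can go). The 5' signal of Gapdh minus its 3' signal, a measure that falls when RNA is degraded, was -0.86 ± 0.20 in WT and -0.98 ± 0.09 in cKO (SD, n = 3, exact permutation p = 0.5).

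Of the genes of the cell cycle and the p53 pathway, Trp53rka encodes a kinase that phosphorylates p53. The WT kidneys had IP signals of -0.39, -0.75 and -0.38 and the cKO kidneys of -1.36, -1.28 and -1.17. The groups lay apart by -0.76 ± 0.21 (1.70-fold, adjusted p = 0.262), within slide 2 by -0.52, and after normexp, loess and Aquantile by -0.26. The supernatant of Trp53rka was above background in 2 cKO and 0 WT kidneys, and its gene has a near copy, Trp53rkb. E2f1, a transcription factor of entry into S phase, was at -3.06, -2.24 and -2.41 in WT and at -2.45, -2.18 and -2.46 in cKO, and its difference of 0.20 ± 0.26 (adjusted p = 0.794) was -0.12 within slide 2.

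Of 3 genes of endosomes and caveolae, 2 had a difference below 0 and 1 above 0, and within slide 2 all 3 were below 0, at -0.37 for Tm9sf1, -0.63 for Rab5a and -0.23 for Cav2. Tm9sf1, a membrane protein of the endosomal system, was at 3.96, 4.11 and 4.20 in WT and at 3.72, 3.60 and 3.90 in cKO, so the groups did not overlap, and differed by -0.35 ± 0.21 (adjusted p = 0.536), against -0.02 ± 0.21 in the supernatant. The early endosome GTPase Rab5a differed by -0.12 ± 0.32 (adjusted p = 0.906) and the caveolin gene Cav2 by 0.31 ± 0.36 (adjusted p = 0.773). Their kidneys ranged from 3.18 to 4.12 in WT and from 2.96 to 3.78 in cKO for Rab5a, and from -0.29 to 0.60 and from -0.35 to 0.84 for Cav2. Both spreads were wider than the differences.

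Of the nuclear and RNA regulators beside Nup50, Carhsp1 encodes an RNA-binding protein with a cold-shock domain and differed by -0.33 ± 0.23 (adjusted p = 0.600), and by 0.01 within slide 2. Alkbh4, a dioxygenase of the AlkB family to which the m6A erasers also belong, differed by -0.07 ± 0.24 (adjusted p = 0.930). Taf1a, a subunit of the factor that recruits RNA polymerase I, differed by 0.05 ± 0.22 (adjusted p = 0.951), which turned to -0.16 with spike-in scaling. In the supernatant, Alkbh4 was at -0.97, -1.27 and -0.65 in WT and at -0.54, -0.54 and -0.27 in cKO, a difference of 0.51 ± 0.23 with groups that did not overlap (adjusted p = 0.495). Carhsp1 and Alkbh4 were thus 2 of 7 named genes whose IP difference minus supernatant difference had an unadjusted p under 0.05, at -0.64 ± 0.22 (adjusted p = 0.242) and -0.59 ± 0.21 (adjusted p = 0.241).

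The named genes of antioxidant defence differed little in the bound RNA. Prdx2, a peroxiredoxin that removes hydrogen peroxide, was at 3.79, 4.07 and 3.77 in WT and at 3.69, 3.88 and 3.85 in cKO, a difference of -0.07 ± 0.21 (adjusted p = 0.920). Gsta4, a glutathione transferase that acts on products of lipid peroxidation, differed by -0.18 ± 0.31 (adjusted p = 0.855), and cKO kidney 3, at 1.73, lay above all 3 WT kidneys while cKO kidneys 1 and 2, at 0.79 and 0.66, lay below them. Duox1, an oxidase that produces hydrogen peroxide, differed by -0.38 ± 0.31 (adjusted p = 0.670), and WT kidney 1, at 0.09, was its highest.

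Among the remaining genes, Bambi, a decoy receptor of the TGF-beta family, differed by -0.32 ± 0.21 (adjusted p = 0.575). Mzb1, the one marker of an immune cell type, was at -1.50, -1.53 and -1.41 in WT and at -2.17, -1.43 and -2.02 in cKO, a difference of -0.40 ± 0.25 (adjusted p = 0.558). Uhrf1bp1l differed by -0.33 ± 0.21 with groups that did not overlap (adjusted p = 0.569). The olfactory receptor genes, of a large family with similar members, were at -0.10 ± 0.19 for Olfr1307 (adjusted p = 0.878) and 0.06 ± 0.21 for Olfr166 (adjusted p = 0.934), the second of which was -0.14 with spike-in scaling. Another 7 measured genes, Cep41, Dnajc11, Gsdmd, Lhfp, Gamt, Lhx1 and Anxa8, differed by -0.25 to 0.20, 3 above and 4 below 0, with adjusted p between 0.708 and 0.998.

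The bound and unbound RNA of the named genes were also set side by side. Of 34 named genes measured in both fractions, 19 differed in the same direction in both, where over all probes 15240 of 29112 did. An IP difference below the supernatant difference was measured for 27 of the 34. The share of all probes for which this held is not given here, so nothing is read from that count. In limma's test of the IP difference minus the supernatant difference, 7 of the 34 had an unadjusted p under 0.05, all negative, and 0 passed after adjustment. Over all probes the share at that threshold was 16.4%, with 2636 lower and 2013 higher. Of the 9 named genes with the smallest p in the IP, 6 could be tested in the supernatant, and all 6 had the same sign there. Among all probes with an unadjusted p under 0.05 in the IP, this held for 2057 of 3285 tested in the supernatant.

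Single values per array showed no difference between the genotypes that passed an exact two-sided permutation test, which cannot go below p = 0.1 with 3 against 3 arrays. The interquartile range of the IP log2 signal was 3.03 ± 0.14 in WT and 3.02 ± 0.02 in cKO (SD, n = 3, exact p = 0.7). The background-subtracted 75th percentile was at 59.2, 57.0 and 64.1 intensity units on the WT arrays and at 66.0, 65.3 and 66.8 on the cKO arrays, so that the cKO arrays were the brighter ones (exact p = 0.1). The level of 23 spike-in probes relative to the array's 75th percentile differed by 0.20 (exact p = 0.4) and by 0.34 within slide 2.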

How the data were processed

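Total RNA of each kidney was precipitated with a rabbit antibody against m6A, and bound and unbound RNA were labelled with Cy5 and Cy3, per the labels' protocols. The deposited intensity values are linear scanner signals made with Agilent Feature Extraction 11.0.1.1, per the submitters' processing notes, and the processed signals are background-subtracted and dye-normalised, per the file headers. No dyes were swapped. Genes, lists and the comparison itself were chosen with earlier results of these data known.

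All fits used limma 3.58.1 under R 4.3.3. Control spots, 102 spike-in probes, 15 negative control probes and spots marked as outliers were left out. Repeated spots of the same probe were averaged as log2 values. Each array was scaled by its 75th percentile. A probe was tested if well above background on 3 or more of 6 arrays (for probes with several spots, at least 0.5 of them). Genotypes were compared with lmFit and eBayes, two-sided, with a Benjamini-Hochberg adjusted p under 0.05. The IP difference minus the supernatant difference was fitted on red minus green per array. In the fit 225 probes had a missing value. Saturation marked no spot, and all arrays held different values. The fit was tested on simulated data.

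All tested genes with a symbol may be named. One result is not reported here. Described are the 20 with the smallest p, the members of 12 gene lists and reference transcripts, and unnamed probes are 2 that rose and 2 that fell with the largest change. RefSeq genes (assembly GRCm38.p6) gave symbols to 45 of 50 accessions and were used for names alone. Sequences and positions of the probes are not used here. Normexp used an offset of 50 on median spot signals. For a probe dim in a whole genotype, per-channel signals after normexp, loess and Aquantile were compared, with the dim signal raised to the dimmest probe above background.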

Additional observations from a re-analysis of the deposited data

Results flagged for a closer look

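Olfr1307, an olfactory receptor gene, differed in opposite directions in the 2 fractions. Its IP signal differed by -0.10 (cKO minus WT, log2) and its supernatant signal by 0.82, with groups that did not overlap in either fraction. The difference between both was tested and was -0.92 (unadjusted p = 0.0142, limma's test, adjusted p over all probes 0.219), above the threshold. In WT the supernatant signal was well above background in 1 of 3 kidneys.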

How the results depend on the processing

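The 35 calls in the IP became 3 after normexp with the 75th percentile, 8 after normexp with quantile normalisation, 5 after normexp with loess and Aquantile and 17 without dye normalisation. Scaling by the 75th percentile of probes above background on all 6 arrays gave 23, quantile normalisation 60, trend and robust variance 72, array weights 62, no filter 4, and an unadjusted p with a 1.5-fold change 3373, of which 8 were named genes. Samples of the same number share only a number, with correlations of 0.10, 0.26 and 0.07 between their deviations, and cKO array 3 correlated best with WT array 1 (0.09). With that number as a replicate block, 11 probes passed, 10 of them among the 35, and the IP difference minus the supernatant difference, 1 call, gave 0. With the slide as a block the IP gave 0, that difference 0 and the supernatant, 68 calls, 1. Within slide 2 the IP gave 5. With loess and Aquantile the supernatant gave 18 and the IP difference minus the supernatant difference 122, and requiring both fractions of every kidney to be above background gave 144. Without 1 array the counts ranged from 0 to 12 in the IP, from 0 to 2 for the difference between fractions, and from 96 to 248 (WT) and from 279 to 387 (cKO) for probes detected in 1 genotype. Whether IP calls had the same direction in the supernatant was recomputed under 7 alternatives chosen after seeing the data (slide 2, both fractions above background in every kidney, loess and Aquantile, and without each WT array or cKO array 1), and it held in those. The slide block and leaving out cKO array 2 or 3 left no call to compare, and the other alternatives were not run for it.

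No named gene passed an adjusted threshold under any alternative. Of 780 values of 30 genes and 4 probes, 701 kept direction and call, 34 no longer passed, 8 passed at the unadjusted threshold and 37 turned sign. With the slide as a block, as within slide 2, the differences that turned were 0.014 for Carhsp1, 0.091 for Ppara, -0.23 for Cav2, -0.12 for E2f1, 0.084 for Gsta4, 0.41 for Pex11a, 0.34 for Alkbh4, -0.15 for Olfr166 and -0.066 for Taf1a. With normexp they were -0.0095 for E2f1, 0.034 for Pex11a, 0.0077 for Rab5a and 0.078 for Prdx2, without dye normalisation 0.0091 for Prdx2, and with spike-in scaling -0.14 for Olfr166 and -0.16 for Taf1a. Without 1 array, E2f1 ranged from -0.039 to 0.37, Gsta4 from -0.52 to 0.019, Pex11a from -0.39 to 0.096, Rab5a from -0.34 to 0.14, Prdx2 from -0.12 to 0.029, Alkbh4 from -0.28 to 0.072, Olfr166 from -0.027 to 0.16 and Taf1a from -0.093 to 0.12. The cause was not tested for any of these. Signals near background and 3 kidneys per genotype limit what can be called.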
